A study of Mus musculus with 14 samples.

Results

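The genes described here carry glucose across the membranes of the kidney tubule or make it from smaller molecules. They were chosen by symbol and number 9 of the 24411 genes in the count tables: Slc5a1, Slc5a2, Slc2a1, Slc2a2, Pcx, Pck1, Fbp1, G6pc and Slc37a4. All 9 passed the filter on low counts, with 14300 genes tested in all. RNA was sequenced from whole kidneys of male C57/B6 mice of 8 weeks, at day 0 (4 libraries), day 1 (5 libraries) and day 3 (5 libraries) of a study of renal ischemia/reperfusion injury (IRI), in which blood flow to the kidney is stopped and then restored. No transgene, deletion or drug is named in the labels of these mice. Whether the day 0 mice were sham-operated is not given in the sources used here, nor is it stated that each library came from a different mouse, so p-values measure the spread between libraries.

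The proximal tubule takes back the glucose that the glomerulus filters. Sodium-glucose cotransporters in the apical membrane bring it into the cell, SGLT2 (Slc5a2) with high capacity in the early segments and SGLT1 (Slc5a1) with high affinity further along, and facilitative carriers in the basolateral membrane pass it on to the blood. The same tubule is, next to the liver, the main site of gluconeogenesis, in which pyruvate carboxylase, phosphoenolpyruvate carboxykinase, fructose-1,6-bisphosphatase and glucose-6-phosphatase turn lactate, glutamine and other substrates into glucose.

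The libraries held 12485579 to 20476979 reads on genes. All 4 day 0 libraries have a 1-digit number in their file names, as do day 1 replicates 3, 4 and 5 and day 3 replicates 4 and 5, whereas day 1 replicates 1 and 2 and day 3 replicates 1, 2 and 3 have a 3-digit number. What the number format stands for is not stated. Since it may mark a technical batch, the results for the 9 genes are also given for the libraries of each format. Day 0 has 1-digit libraries alone, so only the 1-digit libraries can be compared with day 0 inside one format, and where 3-digit libraries are set against day 0, effects of format cannot be told apart from those of day. The proximal tubule markers were present throughout, with summed levels of 16300 to 18500 CPM (counts scaled to the library's size with TMM factors) at day 0, 4930 to 16100 at day 1 and 2850 to 14900 at day 3. Of the 7 injured tubule markers, 6 rose at day 1 and 6 at day 3. In RNA from whole kidney, fewer cells of a type and less RNA per cell cannot be told apart.

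Upstream sequence was read from RefSeq (GRCm38.p6), where 8 of the 9 genes had an entry. It is shown for the 4 genes whose levels changed between days over all libraries. Each sequence runs 5′ to 3′ on the gene's strand from 250 bases before the RefSeq start. It stops before the GENCODE gene start where that comes first, or at the end of a match beyond it. For G6pc only 95 bases are therefore shown, and its match lies at -221 to -216 from the RefSeq start. Capitals mark a match.
Slc5a1 (chr5:33103969-33104218, + strand): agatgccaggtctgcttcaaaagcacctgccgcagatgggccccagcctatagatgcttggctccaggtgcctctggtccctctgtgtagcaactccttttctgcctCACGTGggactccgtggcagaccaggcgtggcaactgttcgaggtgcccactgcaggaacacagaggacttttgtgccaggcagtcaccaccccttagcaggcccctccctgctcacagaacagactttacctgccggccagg
Slc2a1 (chr4:119108495-119108713, + strand): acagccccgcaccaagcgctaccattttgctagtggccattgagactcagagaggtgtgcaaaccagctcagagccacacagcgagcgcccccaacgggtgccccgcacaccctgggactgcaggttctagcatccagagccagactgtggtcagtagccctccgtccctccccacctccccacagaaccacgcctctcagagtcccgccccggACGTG
Pck1 (chr2:173152823-173153047, + strand): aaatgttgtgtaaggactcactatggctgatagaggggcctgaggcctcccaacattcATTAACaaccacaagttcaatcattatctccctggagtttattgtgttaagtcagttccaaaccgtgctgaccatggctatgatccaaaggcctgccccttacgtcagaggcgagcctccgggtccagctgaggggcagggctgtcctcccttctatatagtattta
G6pc (chr11:101367466-101367560, + strand): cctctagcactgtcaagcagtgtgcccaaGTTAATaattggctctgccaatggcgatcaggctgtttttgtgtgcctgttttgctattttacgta
The letters searched on both strands of the 250 upstream bases were GTTAAT (a half-site of HNF1), TGACGTCA (the full cAMP response element), ACGTG (the core of the hypoxia response element), CAAAGTCCA (an HNF4 site) and TGTTTAC (a FOXO or FOXA site). In Slc5a1 the capitals hold ACGTG on each strand, overlapping in one palindrome. Slc2a1 held ACGTG once. Pck1 held GTTAAT on the opposite strand and G6pc on the gene's strand. In the Pcx window that begins at chr19:4510222, ACGTG stood at 2 places, of which 1 is again a palindrome. The window of another Pcx start, from chr19:4594069, held none of the letters. No letters searched were found upstream of Slc2a2, Fbp1 or any listed start of Slc37a4. Of 32851 RefSeq promoters, 6.43% held GTTAAT, 16.6% ACGTG, 3.17% TGTTTAC, 1.55% TGACGTCA and 0.384% CAAAGTCCA. These matches describe the letters and do not show that a factor binds there. Sites that differ from the letters by a base were not sought, so a lack of matches does not show that a site is absent.

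Per kilobase of the principal transcript, Pck1 was the most abundant of the 9 genes at day 0, at 1290 ± 94.7 CPM per kb (SD, n = 4), followed by Fbp1 at 928 ± 76.6. G6pc (273 ± 106), Slc5a2 (189 ± 20.3) and Pcx (178 ± 41.3) came next, with ranges that overlapped from one to the next. Slc37a4 stood at 119 ± 8.8. Slc2a2 (25.2 ± 2.65), Slc5a1 (24.3 ± 4.45) and Slc2a1 (21.4 ± 2.09) came last and overlapped in turn. At day 1 Slc2a1, at 44.5 ± 12.9 CPM per kb (n = 5), stood above both Slc2a2 (15.6 ± 7.15) and Slc5a1 (10.7 ± 3.14), without overlap. Together the 9 genes held 0.679% to 0.761% of CPM at day 0, 0.393% to 0.615% at day 1 and 0.417% to 1.16% at day 3.

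Between day 0 and day 1, 3 of the 9 genes changed. The SGLT1 gene Slc5a1 and the glucose-6-phosphatase gene G6pc fell, and the GLUT1 gene Slc2a1 rose. Of all genes tested, 18.7% fell and 23.3% rose in the same comparison, so the share of the 9 genes that fell (2 of 9) is near the background and the share that rose (1 of 9) is below it. The median log2 fold change was -0.60 over the 9 genes and 0.007 over all genes tested.

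**Figure D1:**
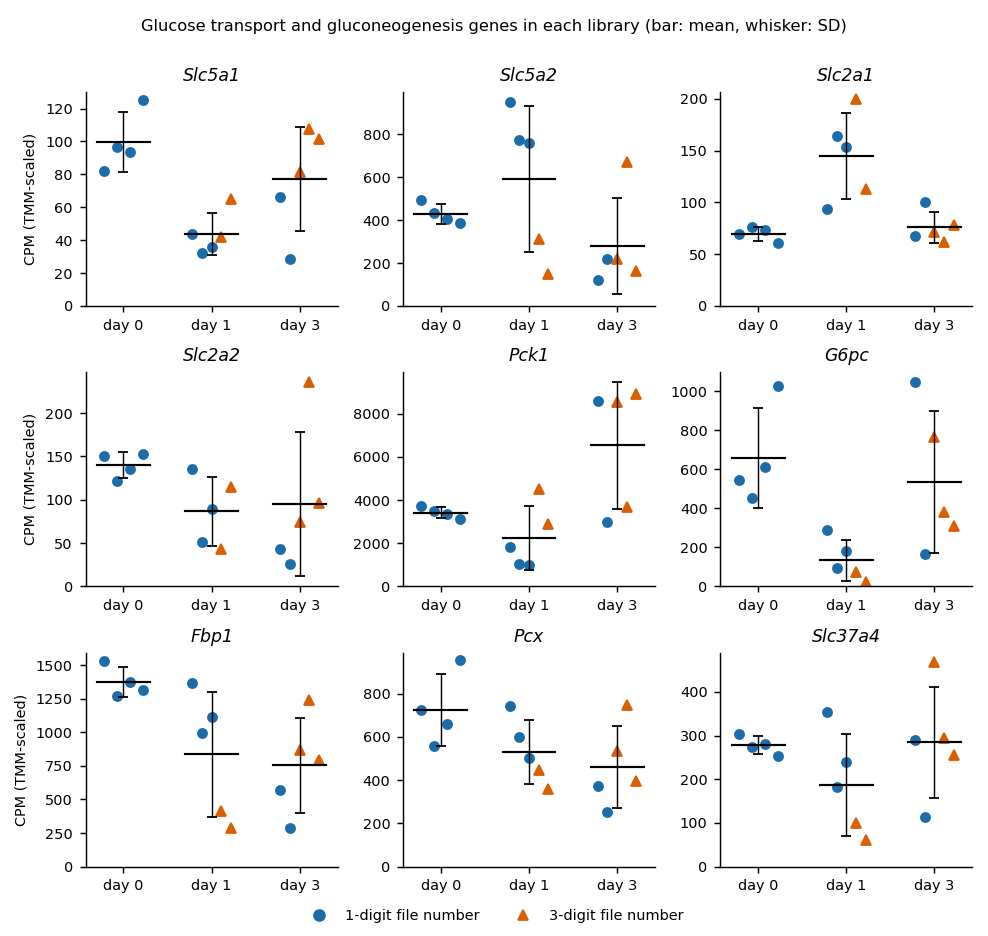
CPM (TMM-scaled, linear axis from 0) of each of the 9 genes in every library at day 0, day 1 and day 3. Circles are libraries with a 1-digit and triangles those with a 3-digit file number, bars are means and whiskers SD. G6pc at day 1 lies between 24.3 and 292 CPM, below all day 0 libraries, and Slc2a1 at day 1 lies between 94.1 and 200 CPM, above all of them.

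Among the apical transporters, Slc5a1 (ENSMUSG00000011034.6, chr5:33104219-33162870, + strand, GRCm38) stood at 82.3, 96.8, 93.9 and 125 CPM in day 0 replicates 1 to 4. At day 1 it stood at 42.1, 65.3, 43.9, 32.1 and 35.9 CPM in replicates 1 to 5. All 5 libraries lay below all 4 of day 0, and the level fell by 1.18 on the log2 scale (SE 0.31, adjusted p = 0.00735). At day 3 the levels were 81.5, 108, 102, 66.5 and 28.8 CPM in replicates 1 to 5. They overlapped both earlier days, the 3-digit libraries (replicates 1 to 3) lying at day 0 levels and the 1-digit ones below. The log2 fold change was -0.36 against day 0 (adjusted p = 0.367) and 0.82 against day 1 (adjusted p = 0.0683), where DESeq2 gave an adjusted p of 0.0379. Of 14 fits with 1 library left out, 2 called Slc5a1 higher than at day 1. They were those without day 1 replicate 2 (1.01, adjusted p = 0.0265) and without day 3 replicate 5 (1.00, 0.00533). It was also called where days 1 and 3 kept only 3-digit libraries (0.85, 0.0344). With the format as a term beside the day, Slc5a1 fell at day 3 against day 0 (-0.91, adjusted p = 0.0152).

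Slc5a2 (ENSMUSG00000030781.13, chr7:128265657-128272430, + strand), the SGLT2 gene, stood at 494, 434, 405 and 388 CPM in day 0 replicates 1 to 4. At day 1 replicates 3 to 5, numbered with 1 digit, held 952, 775 and 761 CPM, and replicates 1 and 2, numbered with 3 digits, 314 and 150 CPM. The former were all above day 0 and the latter all below it, so the day 1 mean of 590 ± 341 CPM describes no single library, and the change from day 0 was not significant (log2 fold change 0.46, SE 0.52, adjusted p = 0.495). At day 3 the levels were 217, 672, 165, 122 and 218 CPM in replicates 1 to 5, with replicate 2 above and the others below all day 0 libraries (log2 fold change -0.63, adjusted p = 0.358). The gene overlaps BC017158 on the opposite strand, and counting without regard to strand kept 59.7% of its reads, whereas each of the other 8 genes had slightly more reads that way. The counts used here are those of the gene's own strand.

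Of the facilitative carriers, Slc2a1 (ENSMUSG00000028645.11, chr4:119108711-119137983, + strand) encodes GLUT1, a widely expressed carrier that hypoxia is known to raise. It stood at 69.6, 76.0, 73.2 and 60.4 CPM at day 0 and at 200, 113, 94.1, 164 and 154 CPM in day 1 replicates 1 to 5. Every day 1 library exceeded every day 0 library, and Slc2a1 rose by 1.05 on the log2 scale (SE 0.21, adjusted p = 0.00144). At day 3 it stood at 71.3, 61.9, 78.0, 67.7 and 100 CPM. Only replicate 5 of these, at 100 CPM, reached the range of day 1. Slc2a1 fell from day 1 to day 3 by 0.93 (SE 0.19, adjusted p = 0.00774), with a log2 fold change of 0.12 against day 0 (adjusted p = 0.669).

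Slc2a2 (ENSMUSG00000027690.13, chr3:28697903-28731359, + strand) encodes GLUT2, the carrier of the basolateral membrane of the early proximal tubule. Its levels were 151, 121, 136 and 153 CPM at day 0 and 42.9, 115, 135, 50.9 and 89.5 CPM in day 1 replicates 1 to 5. At day 3 they were 74.2, 236, 96.5, 43.6 and 25.6 CPM, a range that took in all libraries of both other days. Neither day differed from day 0 by the test (log2 fold changes -0.69 and -0.56, adjusted p = 0.275 and 0.403).

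The first step of gluconeogenesis is carboxylation of pyruvate by the Pcx product in mitochondria. Pcx (ENSMUSG00000024892.17, chr19:4510472-4621752, + strand) stood at 723, 560, 658 and 954 CPM at day 0, and at 449, 357, 744, 602 and 504 CPM in day 1 replicates 1 to 5. At day 3 it stood at 537, 747, 398, 373 and 253 CPM. The days overlapped, and the log2 fold changes from day 0 were -0.45 at day 1 (adjusted p = 0.219) and -0.65 at day 3 (adjusted p = 0.0923).

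Pck1 (ENSMUSG00000027513.11, chr2:173153048-173159273, + strand) encodes the cytosolic phosphoenolpyruvate carboxykinase, usually taken as the controlled step of the pathway. It stood at 3716, 3506, 3354 and 3118 CPM at day 0. At day 1 it stood at 4518, 2910, 1831, 1027 and 1008 CPM in replicates 1 to 5 and at day 3 at 8549, 3691, 8912, 8598 and 2978 CPM. Day 1 replicates 3 to 5, those with 1-digit numbers, were all below day 0, and 3 of the 5 day 3 libraries were more than double the highest day 0 value. Pck1 rose from day 1 to day 3 by 1.53 on the log2 scale (SE 0.42, adjusted p = 0.0266), while the changes from day 0 were not significant (-0.60 at day 1, adjusted p = 0.28, and 0.94 at day 3, adjusted p = 0.12). With the format as a term, Pck1 fell at day 1 against day 0 (-1.13, adjusted p = 0.0331) and its fold change at day 3 was 0.42. With the replicate number as a block, Pck1 rose at day 3 against day 0 (1.11, adjusted p = 0.0483). The rise from day 1 to day 3 lost its call when only these 2 days were fitted (adjusted p = 0.0761), and when 1 of 6 libraries was left out, with an adjusted p of 0.0616 without day 1 replicate 3, 0.0653 without replicate 4 and 0.0609 without replicate 5. It was 0.0603 without day 3 replicate 1, 0.0633 without replicate 3 and 0.0572 without replicate 4. The log2 fold change in these 6 fits was 1.35 to 1.47.

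Fbp1 (ENSMUSG00000069805.10, chr13:62864753-62888282, - strand) encodes fructose-1,6-bisphosphatase. Its day 0 levels were 1530, 1269, 1376 and 1317 CPM. At day 1 it stood at 1369, 998 and 1111 CPM in the 1-digit libraries (replicates 3 to 5) and at 411 and 287 CPM in the 3-digit libraries, and at day 3 at 872, 1243, 795, 568 and 289 CPM in replicates 1 to 5. All day 3 libraries lay below all day 0 libraries, yet the spread left the change without significance (log2 fold change -0.87, SE 0.43, adjusted p = 0.134). The value at day 1 was -0.72 (adjusted p = 0.191).

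The last step, release of free glucose in the endoplasmic reticulum, needs the phosphatase encoded by G6pc and the glucose-6-phosphate carrier encoded by Slc37a4. G6pc (ENSMUSG00000078650.2, chr11:101367561-101377903, + strand) stood at 544, 451, 614 and 1029 CPM at day 0 and at 75.0, 24.3, 292, 95.2 and 180 CPM in day 1 replicates 1 to 5. No library of one day reached the range of the other, and G6pc fell by 2.31 on the log2 scale (SE 0.61, adjusted p = 0.00869). At day 3 it stood at 768, 382, 308, 1047 and 165 CPM. Of these, 4 exceeded all of day 1 and replicate 5 did not. G6pc rose from day 1 to day 3 by 2.00 (SE 0.59, adjusted p = 0.0343), and with the replicate block the adjusted p was 0.0538 and with only these 2 days fitted 0.0813. That call was lost without day 1 replicate 1 (1.84, adjusted p = 0.0611), 4 (1.90, 0.0851) or 5 (2.14, 0.0577) and without day 3 replicate 1 (1.84, 0.074) or 4 (1.61, 0.0862).

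Slc37a4 (ENSMUSG00000032114.9, chr9:44396852-44402968, + strand) stood at 304, 273, 282 and 254 CPM at day 0, at 98.9, 61.4, 355, 183 and 239 CPM in day 1 replicates 1 to 5, and at 469, 295, 255, 290 and 113 CPM at day 3. The 2 lowest values of day 1 were the 3-digit libraries. The log2 fold changes from day 0 were -0.57 at day 1 (adjusted p = 0.295) and 0.03 at day 3 (adjusted p = 0.959).

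Against day 0, 0 of the 9 genes changed at day 3 by edgeR's quasi-likelihood test, whereas 19.5% of all genes rose and 13.8% fell. At an unadjusted p under 0.05 there was 1, Pcx, and DESeq2 called 0. The median log2 fold change was -0.36 over the 9 genes and 0.054 over all genes. This count rested on day 3 replicate 2, the library with the most Slc5a2, Slc2a2, Fbp1 and Pcx of its day. Without it, Slc5a2 (-1.25, adjusted p = 0.0336), Slc2a2 (-1.22, adjusted p = 0.0267) and Pcx (-0.89, adjusted p = 0.0158) fell. Over all genes that fit gave 5659 calls in either direction, against 4757 with all libraries. Leaving out the library highest in a gene lowers that gene's fold change, so this fit is not an independent check. Between day 1 and day 3, 2 of the 9 genes rose (Pck1 and G6pc) and 1 fell (Slc2a1), beside 8.52% and 7.39% of all genes.

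The file number format separated the libraries of a day for several of these genes. At day 1, 1 of 9 genes was higher in the 3-digit libraries (Pck1, by 1.53, adjusted p = 0.0167) and 3 were lower, Slc5a2 (-1.84, adjusted p = 0.0152), Fbp1 (-1.73, adjusted p = 0.00113) and Slc37a4 (-1.69, adjusted p = 0.00635). Of all genes, 18.6% were higher and 16.4% lower. G6pc had the largest fold change of the 9, -1.93, with no overlap between formats and an adjusted p of 0.0602, and DESeq2 called it lower (0.0319). At day 3, 3 of 9 were higher in the 3-digit libraries, Slc5a1 (1.02, adjusted p = 0.0378), Slc2a2 (1.97, adjusted p = 0.0276) and Fbp1 (1.18, adjusted p = 0.0178), and 0 were lower by edgeR or DESeq2, beside 10.3% and 8.22% of all genes. DESeq2 also called Pcx higher (0.84, adjusted p = 0.0227), as did edgeR on library totals (0.04). At an unadjusted p under 0.05, 4 of the 9 differed at day 3. The share of all genes at that threshold was not computed, so this and the other counts at an unadjusted p have no background. The difference between formats itself differed between the days for 4 of 9 genes, Fbp1 (2.91, adjusted p = 0.000913), Slc5a2 (2.89, adjusted p = 0.0155), Slc37a4 (2.45, adjusted p = 0.0096) and Pcx (1.46, adjusted p = 0.0286), compared with 17.6% of all genes in either direction. DESeq2 also called Slc2a2 here (2.22, adjusted p = 0.00967).

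Several of these format results rested on few libraries. With 1 library left out, Fbp1 never lost its call at day 1 (log2 fold change -2.03 to -1.49). The differences between days of Fbp1 (2.49 to 3.48) and Slc37a4 (1.91 to 3.28) were not lost either. Some lost calls had folds that hardly moved, as for Slc5a1 at day 3 without day 0 replicate 2 (1.03, with all libraries 1.02). Others shrank, as for Slc5a1 without day 3 replicate 5 (0.52). Without day 1 replicate 2 the day 1 calls of Slc5a2 (adjusted p = 0.156) and Slc37a4 (0.0879) were lost, and that of Pck1 was lost without replicate 1 (0.126), 4 (0.06) or 5 (0.0583). G6pc was called lower at day 1 without day 1 replicate 4 (0.0494) or day 3 replicate 4 (0.0245) or 5 (0.0247). All 3 day 3 calls were lost without day 3 replicate 2 (adjusted p from 0.0522 for Fbp1 to 0.092 for Slc5a1) or replicate 5 (0.17 for Fbp1 to 0.302 for Slc5a1), and that of Slc5a1 also without day 0 replicate 2 or 3 (0.0524 each), day 1 replicate 5 (0.0506) or day 3 replicate 3 (0.0904). At day 3 Pcx was called higher without replicate 3 (0.0493) and Slc37a4 without replicate 4 (0.0234). Of the differences between days, Slc5a2 lost its call without day 1 replicate 2 (0.0679) or day 3 replicate 4 (0.0569). Pcx lost it without day 1 replicate 1 (0.0602), 2 (0.106) or 3 (0.0612) or day 3 replicate 2 (0.0508) or 5 (0.105). Slc2a2 gained one without day 1 replicate 2 (0.0314) or 4 (0.0362) or day 3 replicate 1 (0.0276), and Slc5a1 (0.0433) and G6pc (0.033) did so without day 3 replicate 4.

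Measured against day 0 separately for each format, Slc5a1, Slc2a1 and G6pc changed at day 1 in the same direction, where only the 1-digit comparison stays inside one format. In the 1-digit libraries Slc5a1 fell by 1.42 (adjusted p = 0.000503), G6pc fell by 1.80 (0.0219) and Slc2a1 rose by 0.98 (0.00204). In the 3-digit libraries Slc5a1 fell by 0.89 (0.0276), G6pc fell by 3.73 (0.00281) and Slc2a1 rose by 1.16 (0.0023). Pck1 also fell in libraries of the 1-digit format (-1.41, adjusted p = 0.00671), while its fold change in the others was 0.12 (0.84). Fbp1 (-1.98, adjusted p = 0.000229), Slc37a4 (-1.80, 0.00285) and Pcx (-0.84, 0.0288) fell in the 3-digit libraries, with -0.24, -0.10 and -0.23 in the others (adjusted p = 0.384, 0.793 and 0.427). The fold change of Slc5a2 was 0.95 for the 1-digit format (adjusted p = 0.0562, and 0.00119 where only that format was fitted) and -0.89 for the 3-digit format (adjusted p = 0.147). Thus 1 gene rose and 3 fell in the 1-digit libraries, beside 28.9% and 29.6% of all genes, and 1 rose and 5 fell in the 3-digit libraries, beside 22.6% and 19% of all genes.

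At day 3 the 1-digit libraries, only replicates 4 and 5, showed 5 of 9 genes lower than day 0 and 0 higher by edgeR. The same 5 were those under an unadjusted p of 0.05. They were Slc2a2 (-2.02, adjusted p = 0.00634), Fbp1 (-1.68, 0.000393), Slc5a2 (-1.34, 0.0326), Pcx (-1.21, 0.00345) and Slc5a1 (-1.06, 0.00915), beside 25.1% of all genes lower and 28.6% higher. In the 3-digit libraries, where day and format are mixed, 1 gene was higher, Pck1 (1.04, adjusted p = 0.044), and 0 were lower by edgeR, beside 19.1% and 13.3% of all genes. It was also the only gene there under an unadjusted p of 0.05. The 2 libraries of the 1-digit format differed widely, as for Slc5a1 (66.5 and 28.8 CPM in replicates 4 and 5) and Fbp1 (568 and 289). At day 1 the 3-digit libraries were likewise 2. These comparisons of 1 format with day 0 were not repeated with 1 library left out.

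Between day 1 and day 3, which hold both formats, the 3 calls made over all libraries were each made in only 1 format by the joint fit. Pck1 rose in the 1-digit libraries (2.17, adjusted p = 0.00299) and was at 0.92 in the 3-digit ones (0.193). G6pc rose in the 3-digit libraries (3.29, 0.0185) and was at 1.68 in the 1-digit ones (0.0762), and Slc2a1 fell in the 3-digit libraries (-1.15, 0.0138) and was at -0.71 in the 1-digit ones (0.0608), where it passed once that format was fitted alone (0.0376). For these 3 genes the difference between the formats did not itself pass (adjusted p = 0.181, 0.285 and 0.437).

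Fbp1 fell from day 1 to day 3 in the 1-digit libraries (-1.44, adjusted p = 0.00299) and rose in the 3-digit ones (1.47, 0.00747). Slc5a2 (-2.29, 0.00605) and Pcx (-0.98, 0.0234) fell in the 1-digit libraries, with 0.60 (0.442) and 0.48 (0.295) in the others, and Slc37a4 rose in the 3-digit libraries (2.09, 0.00692), with -0.36 (0.491) in the others. Thus 1 gene rose and 3 fell in the 1-digit libraries, beside 16.5% and 15.5% of all genes, and 3 rose and 1 fell in the 3-digit libraries, beside 7.5% and 6.41%.

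**Figure D2:**
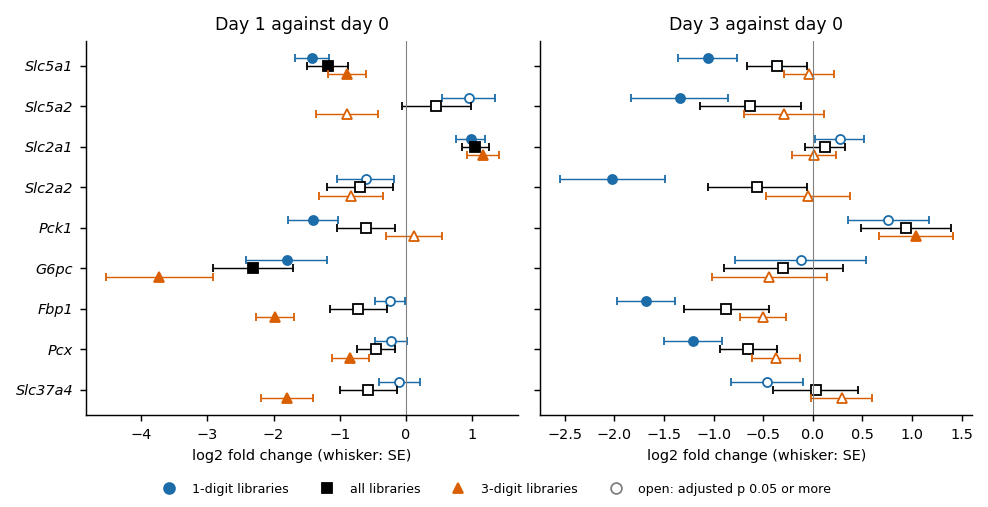
Log2 fold change from day 0 at day 1 (left) and day 3 (right) for the 9 genes, in the 1-digit libraries (circles), all libraries (squares) and the 3-digit libraries (triangles). Whiskers are SE and filled symbols have an adjusted p under 0.05. Slc5a1, Slc2a1 and G6pc are filled in all 3 at day 1, and no square is filled at day 3.

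Marker lists of the tubule differed between the formats to unlike degrees. Of all genes, 18.6% were higher and 16.4% lower in the 3-digit libraries at day 1, and 10.3% and 8.22% at day 3. Shares of all genes against day 0 stand with the pathway genes that follow. The summed level of the 5 markers of the early proximal tubule (S1 and S2) was 2010 to 2490 CPM at day 0, 886 to 2210 in the 1-digit and 284 to 399 in the 3-digit libraries of day 1, and 519 to 1430 and 1030 to 3370 at day 3. The S1 and S2 markers were lower in the 3-digit libraries at day 1 for 4 of 5 genes (median log2 fold change -2.31), whereas of the 5 markers of the late segment (S3) 3 were higher and 1 was lower (median 1.76). The S3 markers summed to 4060 to 4770 CPM at day 0, to 1140 to 1820 and 1500 to 2160 in the 1-digit and 3-digit libraries of day 1, and to 248 to 527 and 1230 to 1980 at day 3, where 3 of 5 were higher in the 3-digit libraries. The sum of the 10 proximal tubule markers was 10600 to 16100 and 4930 to 5370 CPM in the 1-digit and 3-digit libraries of day 1, and 2850 to 5200 and 7390 to 14900 CPM at day 3. In the 3-digit against the 1-digit libraries, 4 of these 10 were lower at day 1 and 6 higher at day 3. Of the S1 and S2 markers, 1 of 5 was higher at day 3. Thick limb and distal tubule markers had 2 of 5 lower at day 1 and 1 of 5 higher at day 3. Collecting duct markers had 1 of 5 higher at each of these days. The 7 injured tubule markers summed to 8460 to 16300 and 31200 to 37000 CPM at day 1 and to 36600 to 44400 and 6660 to 33300 CPM at day 3. On average Spp1 made up most of this sum, at 1030, 16700 and 24500 CPM at days 0, 1 and 3. Havcr1 ranged from 30.5 to 3010 CPM at day 1, against 89.8 to 119 at day 0, and did not pass at day 3 (adjusted p = 0.155). The 6 hepatocyte markers, some of which the kidney also expresses, summed to 2040 to 2380 CPM at day 0, to 2550 to 3800 and 272 to 934 in the 1-digit and 3-digit libraries of day 1, and to 331 to 474 and 525 to 1220 at day 3. On average Cyp2e1 alone made up most of these sums, at 2100, 1920 and 636 CPM at days 0, 1 and 3. Of the 5 tested, 3 were lower in the 3-digit libraries at day 1, Alb (-2.92), Cyp2e1 (-2.36) and Ttr (-2.11), and 1 at day 3, Alb (-2.77). Against day 0 over all libraries, Cyp2e1 was lower at day 3 (-1.72, adjusted p = 0.0362) and no other passed at day 1 or day 3. By format, 1 of the 5 was higher in the 1-digit and 2 were lower in the 3-digit libraries of day 1, and at day 3 1 was higher and 2 lower in the 1-digit and 2 lower in the 3-digit libraries. Alb, which defines the liver cell, averaged 4.32 CPM at day 0, 15.5 at day 1 and 6.27 at day 3. Of the 5 erythroid markers the 4 hemoglobin genes were listed at 0 in every library. The 6 leukocyte markers summed to 114 to 170, 94.2 to 221 and 136 to 424 CPM at days 0, 1 and 3. At day 1, S100a8 (6.55), S100a9 (6.64) and Cd68 (3.57) were higher and Csf1r was lower (-1.65), and at day 3 4 of the 6 were higher, Lyz2 (2.00) among them, and Csf1r was lower (-1.86). The 6 endothelial markers summed to 239 to 309, 282 to 446 and 152 to 642 CPM, with 1 higher and 1 lower at day 1 over all libraries and log2 fold changes of -0.26 to 0.67 at day 3 (adjusted p = 0.117 to 0.79). In the 1-digit libraries of day 3, 5 of the 6 were higher than at day 0. At day 3 the endothelial sum was 391 to 642 CPM in the 1-digit and 152 to 259 in the 3-digit libraries, where 4 of the 6 were lower and 0 higher by edgeR (median -1.23). The 5 markers of the thick limb and distal tubule summed to 6800 to 9410, 3330 to 6040 and 2150 to 3270 CPM at days 0, 1 and 3, with 3 of 5 lower at day 1 and 5 of 5 at day 3 (median -2.66). The 5 collecting duct markers summed to 757 to 1020, 412 to 789 and 275 to 730 CPM, with 1 of 5 lower at day 1 and 2 of 5 at day 3. The part of these cell types in the changes of the 9 genes and of the pathway genes that follow was not tested.

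Ratios of counts within a library need no scaling between libraries. The log2 ratio of G6pc to Slc37a4 was 0.84, 0.72, 1.13 and 2.02 at day 0 and -0.40, -1.33, -0.28, -0.95 and -0.41 in day 1 replicates 1 to 5. At day 3 it was 0.71, 0.37, 0.27, 1.85 and 0.55. Day 1 did not overlap with either other day, and was 1.85 lower than day 0 (difference -1.85, exact permutation test, two-sided, p = 0.0159, adjusted over 9 tests 0.0476). From day 1 to day 3 the ratio rose by 1.42 (exact permutation p = 0.00794, adjusted 0.0476). These are the smallest p-values that 4 against 5 and 5 against 5 libraries can give. With 1 library left out, the call of day 1 against day 0 was lost in all 9 tests and that of day 3 against day 1 in 5 of 10. The day 1 mean was -0.54 ± 0.35 in the 1-digit libraries (n = 3), and the 3-digit libraries held -0.40 and -1.33, so both formats lay below day 0.

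The log2 ratio of Slc2a1 to Slc2a2 was -1.11, -0.68, -0.89 and -1.34 at day 0 and 2.22, -0.02, -0.52, 1.69 and 0.78 in day 1 replicates 1 to 5. All day 1 libraries lay above all day 0 libraries, by 1.83 on average (exact permutation p = 0.0159, adjusted 0.0476). That call was lost in each of the 9 tests with 1 library left out (exact permutation, adjusted p = 0.0571 to 0.107). At day 3 it ranged from -1.93 to 1.97 and differed from neither (exact permutation, adjusted p = 0.286 against day 0 and 0.438 against day 1). For Slc5a1 to Slc5a2, day 1 replicates 3 to 5 stood together at -4.44, -4.59 and -4.40, below all other libraries, while replicates 1 and 2 stood at -2.89 and -1.20. Day 0 ranged from -2.58 to -1.63, and no comparison of days passed (exact permutation, adjusted p from 0.125 to 0.476).

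**Figure D3:**
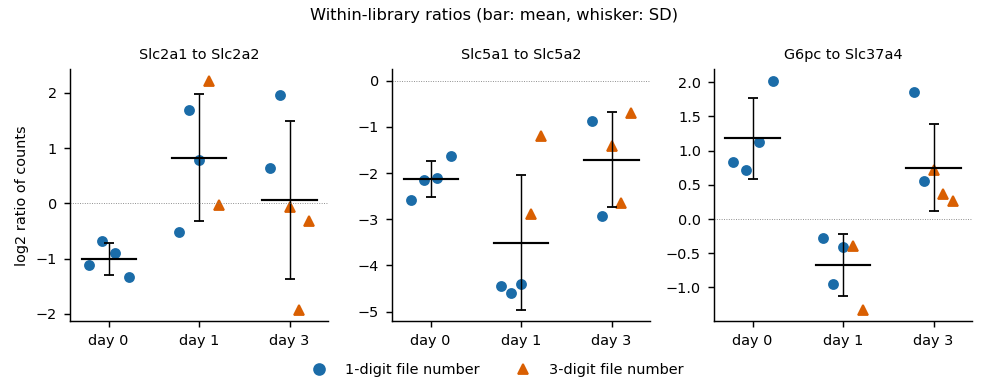
Log2 ratio of the counts of 2 genes within each library, by day, with circles for 1-digit and triangles for 3-digit file numbers, bars for means and whiskers for SD. The G6pc to Slc37a4 ratio is below 0 in all 5 day 1 libraries and above 0 in all others.

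Other genes of the pathway moved in both directions. Their counts stand beside 23.3% of all genes higher and 18.7% lower at day 1 and 19.5% and 13.8% at day 3, with medians over all genes of 0.007 and 0.054. The counts by format stand beside other shares, which at day 1 were 28.9% higher and 29.6% lower in the 1-digit and 22.6% and 19% in the 3-digit libraries, and at day 3 28.6% and 25.1%, and 19.1% and 13.3%. Of 16 other sugar transporters, 14 were tested, of which 2 rose and 4 fell at day 1 (median log2 fold change -0.54) and 2 rose and 1 fell at day 3. By format, 1 rose and 5 fell in the 1-digit and 3 and 5 in the 3-digit libraries of day 1. Against day 0 the 1-digit libraries of day 3 had 2 higher and 8 lower (median -1.27) and the 3-digit ones 2 and 2 (median -0.16). The most abundant, Pdzk1ip1, whose product partners SGLT2, stood at 464 ± 61.8, 427 ± 106 and 358 ± 161 CPM at days 0, 1 and 3 and passed in neither comparison with day 0. The myo-inositol transporter gene Slc5a3 stood at 324 ± 79.5, 206 ± 75.7 and 288 ± 166 CPM and did not pass either. The fall at day 3 was that of Slc2a4 (-1.55, adjusted p = 0.00042), which encodes the insulin-responsive GLUT4. Chosen after their values were seen, the fructose transporter gene Slc2a5 fell from 94.6 ± 18.7 CPM at day 0 to 25.6 ± 19.9 at day 1 (adjusted p = 0.0345), and Slc2a3, which encodes the high-affinity GLUT3, rose from 0.584 ± 0.0965 to 3.07 ± 1.57 CPM (adjusted p = 0.00124).

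Of 18 other enzymes of gluconeogenesis and of glucose and fructose phosphates, 17 were tested, of which 3 rose and 1 fell at day 1 (median 0.08) and 4 rose and 4 fell at day 3 (median -0.09). By format, 3 rose and 2 fell in the 1-digit and 5 and 3 in the 3-digit libraries of day 1, and 4 and 3, and 5 and 5, at day 3. The cytosolic malate dehydrogenase gene Mdh1 fell at day 3 (-0.76, adjusted p = 0.0386). The fall at day 1 was that of Pfkfb2 (-0.87, adjusted p = 0.00174), a regulator of fructose-2,6-bisphosphate. Chosen after its values were seen, Hk2, a hexokinase that phosphorylates glucose, rose from 0.703 ± 0.377 CPM at day 0 to 8.23 ± 4.0 at day 1 (adjusted p = 0.000152) and stood at 5.22 ± 2.06 at day 3 (adjusted p = 0.000767 against day 0).

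Of 15 genes for the entry of gluconeogenic substrates, 14 were tested, of which 1 rose and 4 fell at day 1 (median -0.38) and 2 rose and 3 fell at day 3 (median -0.40). By format, 1 rose and 5 fell in the 1-digit and 1 and 6 in the 3-digit libraries of day 1. The 1-digit libraries of day 3 had 2 higher and 8 lower than day 0 (median -0.64) and the 3-digit ones 4 and 4 (median -0.10). The rise at day 1 was that of Slc16a1 (1.26, adjusted p = 0.0219), which encodes the monocarboxylate carrier MCT1. The lactate dehydrogenase gene Ldhb stood at 1680 ± 96.1, 1540 ± 301 and 1200 ± 292 CPM at days 0, 1 and 3 and did not pass. The glutamate dehydrogenase gene Glud1 stood at 564 ± 18.1 CPM at day 0 and 908 ± 279 at day 1 (adjusted p = 0.0614), and rose by day 3 to 1140 ± 392 (adjusted p = 0.0141).

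Of 18 regulators of gluconeogenic genes, 4 rose and 8 fell at day 1 (median -0.47), and 1 rose and 4 fell at day 3 (median -0.07). By format, 4 rose and 8 fell in the 1-digit and 1 and 8 in the 3-digit libraries of day 1, and 2 and 6, and 1 and 4, at day 3. Hnf4a, a nuclear receptor of the proximal tubule and the liver, fell from 926 ± 105 CPM at day 0 to 455 ± 77.5 at day 1 (adjusted p = 0.00133) and stood at 641 ± 185 at day 3 (adjusted p = 0.0518 against day 0). The rise at day 3 was that of Ppara (1.19, adjusted p = 0.0242), a nuclear receptor that fatty acids activate. Chosen after its values were seen, Ppargc1a, a coactivator of Pck1 and G6pc in the liver, fell from 94.1 ± 4.29 to 28.2 ± 5.30 CPM at day 1 (adjusted p = 5.17e-05) and stood at 45.5 ± 12.8 at day 3 (adjusted p = 0.00206 against day 0).

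**Figure D4:**
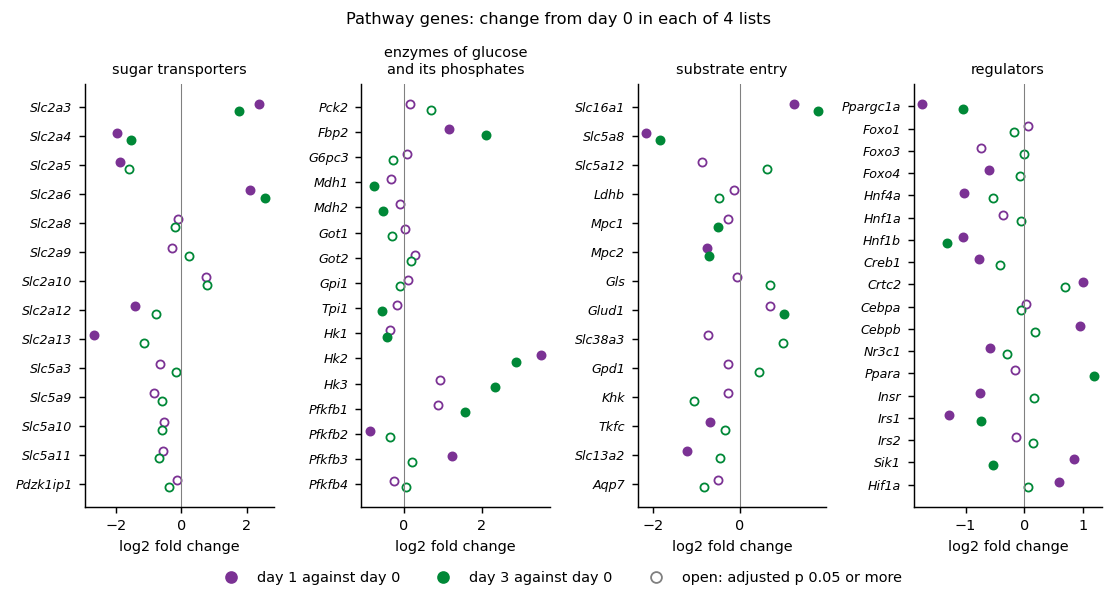
Log2 fold change from day 0 at day 1 (purple) and day 3 (green) for tested genes of 4 lists: sugar transporters, enzymes, substrate entry and regulators. Filled points have an adjusted p under 0.05. Filled points lie on both sides of 0 in every list, and 8 of 18 regulators are filled on the lower side at day 1.

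Over the 14 libraries, which share their days and formats, Fbp1 and Pcx (Pearson r of log2 CPM 0.87), G6pc and Slc37a4 (0.85) and Fbp1 and Slc37a4 (0.80) went together most closely, while Slc5a1 and Slc2a1 (-0.80), Slc2a1 and G6pc (-0.78) and Slc5a2 and Pck1 (-0.75) ran opposite. Among 13326 genes, the genes most like Slc5a2 were Slc34a3 (r = 0.953), a phosphate cotransporter of the proximal tubule, and Dpep1 (0.951), a brush border dipeptidase. For Fbp1 they were Upb1 (0.982) and Cml1 (0.978), and Slc37a4 was close to Aga (0.941). Slc2a2 was closest to Wdpcp (0.979) and Apip (0.963), Slc5a1 to Slc30a9 (0.962) and Atp6v1a (0.961), and Pcx to Suclg2 (0.94) and Amn (0.939). G6pc was closest to Klhl24 (0.941) and Cpeb4 (0.934), Pck1 to Dmd (0.936) and Zmym3 (0.924), and Slc2a1 to Uchl3 (0.932) and Elp5 (0.929). These are descriptions over 14 points and carry no test.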

How the data were processed

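RNA from kidneys of 14 mouse samples was analysed. Per the submitters' processing notes, the reads were handled with Trimmomatic and STAR against mm10. Versions and parameters are not given in the sources used here. The deposited files hold raw counts of reads per gene, 1 file per library, without strand and for each strand. The column used held 98.5% to 98.7% of strand-assigned reads. STAR's 4 summary entries without a gene took 29.0% to 38.3% of reads and were left out. Only uniquely mapped reads are counted, which lowers genes that have near-identical copies.

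Tests were run with edgeR 4.0.16 under R 4.3.3 (filterByExpr by day, TMM, quasi-likelihood test, Benjamini-Hochberg adjustment over 14300 genes, called under 0.05), with 1 term per day over 14 libraries or 1 term per day and file number format. DESeq2 1.42.0 was an alternative. A log2 CPM had a prior count of 2. Ratios of counts, with 1 added to each count, were tested by exact permutation with scipy 1.17.1, two-sided, adjusted over 9 tests. Figures used matplotlib 3.10.9. On simulated counts of 14153 genes for day 1 against day 0, 172 of 200 genes changed by a log2 fold change of 2 were recovered with 11 false calls, and for the format comparison at day 1, with 14145 genes, 143 of 200 with 6 false calls.

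Coordinates are from GENCODE vM21 (GRCm38) and upstream sequence from RefSeq (GRCm38.p6). The members and lists were chosen with earlier results of these data known. All 9 members are reported. Of each pathway list the 2 most abundant genes and any gene alone in its direction are named at days 1 and 3, and for each member the 2 genes with the highest Pearson correlation, except 1 gene that is not reported here. Replicate pairs of a day differed by a chi-square per degree of freedom of 5.69 to 228, so none was counted as a repeat. Same-numbered libraries of different days had correlations of -0.17 to 0.26 and share only a number.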

Additional observations from a re-analysis of the deposited data

Results flagged for a closer look

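In the group of 5 day 3 libraries, the log2 ratio of G6pc to Slc37a4 in replicate 4, at 1.85, stood apart from the other 4, which lay between 0.27 and 0.71. Of 36 groups of values examined in this way, chance gives about 1.8 such libraries. The difference between 3-digit and 1-digit libraries differed between day 3 and day 1 for Fbp1 (2.91 on the log2 scale), Slc5a2 (2.89), Slc37a4 (2.45) and Pcx (1.46), by edgeR's test of the difference itself. For each of them the 3-digit libraries were lower at day 1 and higher at day 3 by the fitted values.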

How the results depend on the processing

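Of 1269 values of single genes under alternatives, 1157 kept their direction and side of the threshold, 42 passed it, 39 lost it and 31 changed sign. The 3 calls of day 1 against day 0 (Slc5a1, Slc2a1, G6pc) remained under every alternative run. Restricted to 1-digit libraries the numbers of members called were 5 (day 1 against day 0), 5 (day 3 against day 0) and 6 (day 3 against day 1), beside 8839, 8119 and 5193 of all genes. Where days 1 and 3 kept 3-digit libraries alone they were 6, 1 and 5, beside 6241, 4953 and 2329. The replicate block gave 3, 1 and 2, beside 5162, 4103 and 2044, the format as a term gave 4, 1 and 3, beside 7997, 6892 and 2811 (with Pck1 added at day 1 and Slc5a1 at day 3 against day 0), and fitting only the 2 days gave 1 for day 3 against day 1. Leaving out 1 library gave 0 to 3 for day 3 against day 0 (3 without day 3 replicate 2), 1 to 5 for day 3 against day 1, 2 to 5 for the format at day 1 and 0 to 4 at day 3. Where a library left out was 1 of 2 of its day and format, the remaining one was assumed to vary like the other groups. The replicate numbers share only a number, and the block changed no call of a member but Pck1 (day 3 against day 0) and G6pc (day 3 against day 1). The causes were not tested.

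The log2 ratio of Slc2a1 to Slc2a2, day 1 against day 0, was 1.65 in 1-digit libraries (exact permutation, adjusted p = 0.171) and 1.48 to 2.17 without 1 library (0.0571 to 0.107). That of G6pc to Slc37a4 was -1.72 (0.171) and -2.0 to -1.57 (0.0571 to 0.107), and for day 3 against day 1 it was 1.74 (0.3) and 1.15 to 1.54 (0.0476 to 0.0857), since fewer libraries allow no smaller p. In 1-digit libraries the ratio of Slc2a1 to Slc2a2 changed sign for day 3 against day 1 (0.65), as did that of G6pc to Slc37a4 for day 3 against day 0 (0.02).

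The values that changed sign were uncalled, except as given. Against day 0, in 3-digit libraries, they were Slc5a2 (-0.89) and Pck1 (0.12) at day 1. At day 3 they were Slc37a4 at 0.00 without a filter, -0.44 in 1-digit libraries and negative without day 0 replicate 4, day 1 replicate 1 or day 3 replicate 1 (range over libraries left out -0.22 to 0.25), and G6pc at 0.41 with the format as a term. For day 3 against day 1 they were Fbp1 at 0.06 on library totals, 0.02 with the format as a term, 1.47 in 3-digit libraries (there called) and positive without day 1 replicate 3 or day 3 replicate 5 (range -0.40 to 0.10). Slc2a2 was at -0.09 with the replicate block, -0.31 with the format term, -1.42 in 1-digit libraries (there called) and negative without day 1 replicate 1 or 4 or day 3 replicate 2 (range -0.53 to 0.35). Slc37a4 was at -0.38 in 1-digit libraries, and Slc5a2 at 0.60 and Pcx at 0.47 in 3-digit libraries. In the format comparisons at day 1, Slc2a2 was at 0.02 on library totals and positive without replicate 1 or 3 (range -1.09 to 0.31), and Slc2a1 negative without the same (range -0.29 to 0.54). At day 3 G6pc was positive without replicate 4 (range -1.13 to 1.56), and without replicate 5 Slc2a1 was positive (range -0.51 to 0.04) and Pck1 negative (range -0.30 to 1.24). The difference between days of Slc2a1 was positive without day 1 replicate 1 (range -0.80 to 0.04).

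Over all genes, day 3 against day 1 gave 2276 calls, 831 with only those days, and 1269 to 1460 without day 1 replicate 3, 4 or 5 or day 3 replicate 1 or 3. It gave 3350 without day 1 replicate 2 and 3090 without day 3 replicate 5. Day 3 against day 0 gave 4757, 3338 without day 0 replicate 3 and 5659 without day 3 replicate 2. The format at day 1 gave 5001, and 1996 without replicate 2, and at day 3 it gave 2645, 4771 without replicate 1, 1176 and 1144 without replicates 2 and 3, and 91 without replicate 5. The format difference between days gave 2510, and 1260 and 1611 without day 1 replicates 1 and 2. Requiring a log2 fold change of at least 1 gave 2963 at day 1 (from 6020), 2597 at day 3, 921 between them, and 2387 and 1467 for the formats. On library totals without TMM, the median over all genes shifted by up to 0.213, and the share of higher calls was 73.8% (with TMM 58.5%) for day 3 against day 0, 77.9% (with TMM 53.6%) for day 3 against day 1, 73.1% (with TMM 53.1%) for the format at day 1 and 35% (with TMM 51.9%) for its difference between days.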
